A study of Mus musculus with 6 samples.

Results

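The genes of the cytosolic ribosome were examined in the temporomandibular joint, the hinge between the lower jaw and the skull, of Igf2bp2 knockout mice and wild-type mice. The members are the genes whose symbol begins with Rpl or Rps and a number, together with Rplp0, Rplp1, Rplp2 and Rpsa, without rows named as pseudogenes. This rule took 84 of the 22032 genes in the deposited counts and used no measured value. Of the members, 77 encode proteins of the canonical cytosolic ribosome. The other 7 members are the paralogues or related genes Rpl3l, Rpl6l, Rpl7l1, Rpl22l1, Rpl32l, Rpl39l and Rps27l.

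The Igf2bp2-/- group (KO) and the WT group had 3 libraries each, made from mRNA of joint tissue of littermates aged 10 weeks. The sources used here do not give the strain, the deleted part of the gene, the number of mice behind a library or whether tissue was pooled. Igf2bp2 itself had 13, 14 and 10 counts in KO libraries 1 to 3, against 38, 20 and 24 counts in WT libraries 1 to 3, so some counts of the targeted gene were present in each KO library. Markers of the labelled tissue were detected in every library: the cartilage gene Col2a1 had 32 to 66 counts per KO library and 25 to 45 per WT library. The lubricin gene Prg4 had 1664 to 2075 counts per KO library and 251 to 349 per WT library. The bone gene Ibsp had 289 to 350 per KO library and 219 to 289 per WT library, and the bone gene Bglap 1785 to 1849 and 354 to 469. These are counts before scaling, and the KO libraries held more counts on nuclear genes, so they show detection only.

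Ribosomal proteins form the large (Rpl) and small (Rps) subunits around the ribosomal RNA, and cells need them in near-equal numbers. Their mRNAs are among the most abundant of a cell, are mostly short, and begin with a run of pyrimidines, the 5′ terminal oligopyrimidine (TOP) motif, through which the kinase mTOR and the protein LARP1 adjust their translation. IGF2BP2 is an RNA-binding protein of the IGF2BP family that binds mRNAs and is known for effects on their stability and translation. A few ribosomal proteins have tissue forms, among them RPL3L, which takes the place of RPL3 in striated muscle.

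Start regions are shown for 5 members: the pair that passed the test of KO against WT (Rplp0 and Rpsa), 1 of the members that varied most within the groups (Rpl38), the signalling target Rps6, and the muscle form Rpl3l. Each runs from 75 bases before to 30 bases after the RefSeq start on GRCm38.p6, a build other than the mm39 named by the submitters. Capitals mark a run of at least 8 C or T from 20 bases before the start onwards, the ETS-type motif CCGGAAG, or TATAAA. Where there are no capitals, none of these lies in the printed bases. The TATAAA of Rplp0 lies in the 30 bases after the RefSeq start, not before it.
Rplp0, chr5:115559392-115559496, + strand: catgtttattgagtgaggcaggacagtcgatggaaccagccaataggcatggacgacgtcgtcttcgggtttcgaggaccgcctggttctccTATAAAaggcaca
Rpsa, chr9:120127691-120127795, + strand: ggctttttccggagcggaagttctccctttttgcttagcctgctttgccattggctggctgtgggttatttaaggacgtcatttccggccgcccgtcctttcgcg
Rpl38, chr11:114668505-114668609, + strand: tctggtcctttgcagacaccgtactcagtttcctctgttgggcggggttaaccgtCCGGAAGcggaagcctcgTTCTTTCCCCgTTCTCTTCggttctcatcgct
Rps6, chr4:86857338-86857442, - strand: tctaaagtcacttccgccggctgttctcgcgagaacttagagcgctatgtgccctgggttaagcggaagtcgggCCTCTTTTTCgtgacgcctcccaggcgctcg
Rpl3l, chr17:24727751-24727855, + strand, the first of its 2 entries: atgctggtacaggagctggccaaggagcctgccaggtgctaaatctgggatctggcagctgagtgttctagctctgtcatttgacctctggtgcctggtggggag

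RefSeq promoter entries were matched for 63 of the 84 members. The run of at least 8 C or T on the given strand, between 20 bases before and 50 bases after the start, was found in 49 of them (77.8%), against 28.5% of 27025 genes in the table. CCGGAAG, searched on both strands of the 300 bases from 250 before to 50 after the start, was found in 26 of the 63 (41.3%), against 9.93% of all genes. AAGATGGC, the core of the YY1 motif, was found in 6 (9.52%), against 3.19% of all genes. TATAAA was found in 8 (12.7%), against 15.7% of all genes. The motifs can overlap, since the reverse strand of CCGGAAG holds C and T letters, and a match is a description of letters only.

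Each KO library held 31813171 to 35094127 counts and each WT library 28551236 to 33935022. Mitochondrial genes took 85.3% to 86.0% of them in KO and 90.6% to 90.8% in WT. That left 4604575, 4899680 and 4676821 counts on nuclear genes in KO libraries 1 to 3, against 3205190, 2625472 and 2969429 in WT libraries 1 to 3. Counts of KO 1 and KO 3 agreed within the noise that sampling read pairs gives (the median gene had 0.941 of the counting variance), and so did those of WT 2 and WT 3 (0.964). Each of these pairs was summed and counted as 1 sample. The same ratio was 1.31 to 1.63 for the other pairs within a group. Tests therefore compare 2 samples per group (KO 1+3 and KO 2 against WT 1 and WT 2+3). Leaving out KO 2 or WT 1 leaves 1 sample in that group, so only fold changes are given for those fits. A tally of calls over all settings in the closing section is the exception. Because no label says that libraries came from separate animals, the p-values reflect only how these samples spread, which may be technical. Levels are given in CPM, counts relative to library size after scaling by the trimmed mean of M-values, and differences are log2 fold changes of KO over WT.

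Few ribosomal protein genes differed between KO and WT. Of the 83 members with enough counts to test, edgeR's quasi-likelihood test called 0 higher and 2 lower in KO at a false discovery rate (FDR) under 0.05, which is 2.41% of them. Across all 14632 genes tested, 9.15% were higher and 8.48% were lower in KO, 17.6% in either direction. At an unadjusted p under 0.05, 0 members were higher and 9 lower, against 2222 higher and 2173 lower of the 14632 genes. The DESeq2 Wald test called 0 higher and 3 lower, against 6.12% and 5.04% of all genes, and limma-voom with quality weights called 0 higher and 3 lower, against 8.41% and 8.45%. Rpl32l was not tested because of its low counts, at 0.170 CPM or less in each library.

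The differences were small and mostly of 1 sign. The log2 fold change was below 0 in 80 of the 83 members, with a median of -0.18, against -0.01 over all genes tested. The middle 50% of members lay between -0.24 and -0.13, and the full range ran from -0.76 (Rpl39l) to 0.28 (Rpl3l). In 77 members the 95% interval of the fold change lay within -1 to 1. Under 5 other scalings 80 to 82 of the 83 lay below 0, with medians of -0.20 to -0.17. Scaling to the summed counts of the members themselves centres them by construction, with a median of 0.01, and moved the median of all genes to 0.17.

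**Figure D1:**
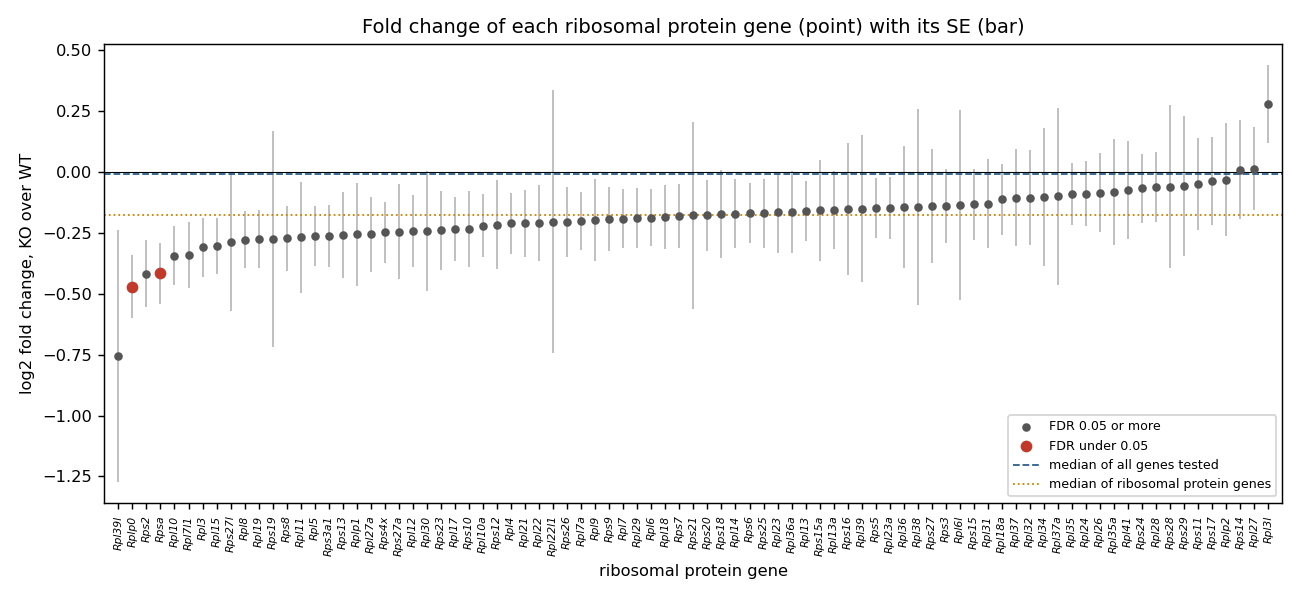
Log2 fold change of KO over WT (vertical axis) for each of the 83 tested ribosomal protein genes, ordered by value along the horizontal axis, with bars of 1 SE. Of 83 points 80 lie below 0, the median of the genes is at -0.18 and that of all genes tested at -0.01, and Rplp0 and Rpsa (red) had an FDR under 0.05.

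Rplp0, the base of the ribosomal stalk that recruits elongation factors, had 136, 145 and 133 CPM in KO libraries 1 to 3, against 206, 183 and 182 CPM in WT libraries 1 to 3. All KO libraries lay below all WT libraries, and WT 1 was the highest of the 6. Rplp0 fell in KO, by 0.47 on the log2 scale (SE 0.13, edgeR FDR 0.0225), with a mean of 140.6 ± 7.52 CPM over the 2 KO samples and 194.8 ± 16.5 CPM over the 2 WT samples (SD). Its fold change was -0.52 without KO 2 and -0.37 without WT 1, each with 1 sample left in a group.

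The other stalk proteins, Rplp1 and Rplp2, bind as dimers to Rplp0 and did not pass the test. Rplp1 had 128, 94.0 and 119 CPM in KO libraries 1 to 3, against 103, 155 and 156 CPM in WT libraries 1 to 3. Here KO 2 was the lowest library and WT 1 lay among the KO libraries, so the groups overlapped (log2 fold change -0.26, SE 0.21, edgeR FDR 0.477). Rplp2 had 75.1, 54.5 and 70.1 CPM in KO and 51.0, 74.3 and 82.7 CPM in WT, and the log2 fold change was -0.03 (SE 0.23, edgeR FDR 0.952). Within their groups, KO 2 and WT 1 were the lowest libraries for both Rplp1 and Rplp2, and the highest for Rplp0.

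Rpsa, the small-subunit protein also known as the laminin receptor, had 140, 125 and 133 CPM in KO libraries 1 to 3, against 172, 175 and 178 CPM in WT libraries 1 to 3. The 3 WT libraries lay close together and above all KO libraries. Rpsa fell by 0.42 (SE 0.12, edgeR FDR 0.0344), with a mean of 131 ± 8.24 CPM over the 2 KO samples and 175 ± 3.22 CPM over the 2 WT samples (SD). Without KO 2, which leaves 1 KO sample, the fold change was -0.35. Rps2, a protein near the mRNA entry channel and chosen here after its values were seen, had 113, 95.5 and 112 CPM in KO, against 127, 159 and 144 CPM in WT. It missed the threshold (log2 fold change -0.42, SE 0.14, edgeR FDR 0.0514) and passed in both other tools. Rplp0, Rpsa and Rps2 have many processed pseudogenes in mammals, and the sources used here do not say how reads shared between copies were counted.

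Rpl5 and Rpl11, which together with 5S RNA bind the p53 regulator MDM2 when ribosome assembly is disturbed, did not pass. Rpl5 had 97.1, 94.2 and 94.3 CPM in KO libraries 1 to 3, against 106, 125 and 118 CPM in WT libraries 1 to 3, with no overlap between the groups (log2 fold change -0.26, SE 0.12, edgeR FDR 0.168). Rpl11 had 71.6, 50.6 and 70.0 CPM in KO, against 59.0, 84.1 and 89.6 CPM in WT (log2 fold change -0.27, SE 0.23, edgeR FDR 0.502). The fold changes of these partners were alike, while the Rpl11 libraries overlapped and its SE was larger. Rps6, the small-subunit protein phosphorylated by the S6 kinases downstream of mTOR, had 115, 104 and 114 CPM in KO, against 118, 124 and 130 CPM in WT. Its groups did not overlap either, by a narrow margin, and its log2 fold change of -0.17 did not pass (SE 0.12, edgeR FDR 0.397).

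The subunits had like medians. The 51 tested large-subunit and stalk members had a median log2 fold change of -0.18 with 1 lower and 0 higher, and the 32 small-subunit members a median of -0.18 with 1 lower and 0 higher (edgeR, FDR under 0.05). All 3 KO libraries lay below all 3 WT libraries in 18 members (21.7%), where 19.1% of all genes tested did so, and above them in 0 members, where 19.2% of all genes did so. The 18 members were Rpl3, Rpl4, Rpl5, Rpl6, Rpl7, Rpl7a, Rpl8, Rpl10, Rpl13, Rpl15, Rpl19, Rpl23a and Rplp0 of the large subunit, and Rps2, Rps3a1, Rps4x, Rps6 and Rpsa of the small one. Their fold changes ran from -0.47 to -0.15, with a median of -0.26. In Rpl23a the margin was slight, as KO 2 and WT 1 both rounded to 106.132 CPM. The share of members lying wholly lower in KO was thus near the background share.

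Per kilobase of transcript, the 77 canonical members had a median level of 99.3 CPM per kb in KO and 113 in WT. The range was 21.1 to 245.6 CPM per kb in KO and 23.8 to 261 in WT. The highest were Rpl41, which encodes the smallest ribosomal protein, with 245.6 CPM per kb in KO and 258 in WT, and Rplp1, with 219 in KO and 261 in WT. Rps15, Rpl23a and Rps12 came next. The lowest canonical member was Rps20, whose reference transcript is 3706 nt long, while Rpl39l (0.541 CPM per kb in KO and 0.887 in WT), Rpl6l, Rpl7l1 and Rps27l were lowest over all tested members.

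The libraries of a group differed from each other in these genes by as much as the groups did. Ribosomal protein genes took 5.49%, 4.87% and 5.41% of nuclear counts in KO libraries 1 to 3, against 5.54%, 6.74% and 6.75% in WT libraries 1 to 3. WT 1 lay with the KO libraries and apart from WT 2 and WT 3. Summed, the members had 6494, 5656 and 6393 CPM in KO, against 6045, 7718 and 7782 CPM in WT. WT 1 was the lowest WT library in 79 of the 83 tested members and lay below every KO library in 32. KO 2 was the lowest KO library in 73 members, and the lowest of all 6 libraries in 43. WT 2 and WT 3, which count as 1 sample, both lay above all KO libraries in 79 members.

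**Figure D2:**
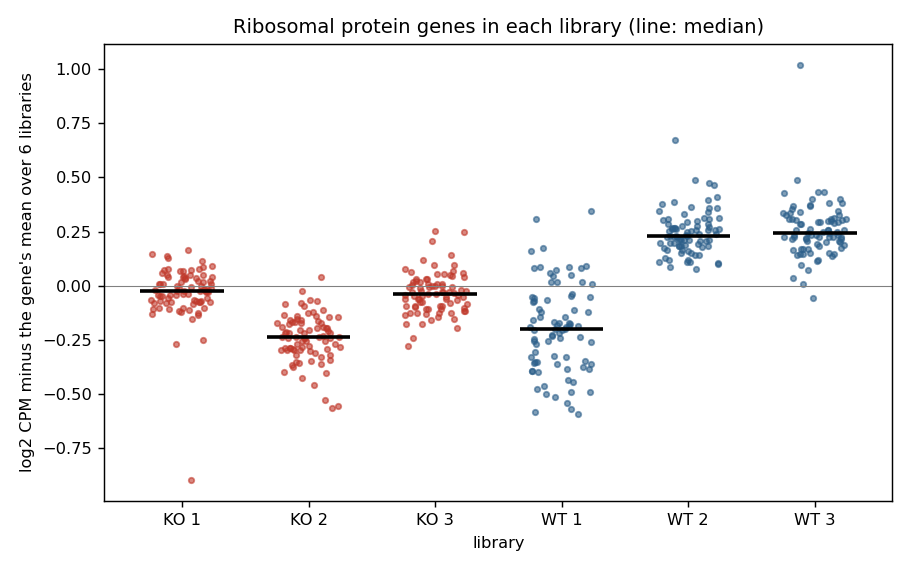
Level of each of the 83 tested ribosomal protein genes in each library (points), as log2 CPM minus the mean of that gene over the 6 libraries, with the median as a black line. WT 2 and WT 3 sit above the KO libraries, WT 1 sits beside KO 2 with a wide spread, and KO 2 sits below KO 1 and KO 3.

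The number of members called changed with these libraries. Without KO 2, 0 members were higher and 0 lower by edgeR (FDR under 0.05), against 3.94% higher and 3.41% lower over all genes, and the median fold change was -0.09. At an unadjusted p under 0.05, 0 members were higher and 1 lower, against 1482 higher and 1519 lower of the 15639 genes tested without KO 2. Without WT 1, 0 were higher and 17 lower, against 8.52% and 6.62% of all genes, and the median was -0.35. Of the 17, 1 was also called with all samples, Rpsa. The other 16 were Rpl10, Rpl22, Rpl27a, Rpl30, Rpl36, Rpl37, Rpl38, Rplp1, Rps2, Rps10, Rps13, Rps15a, Rps23, Rps26, Rps27a and Rps27l. With the 6 libraries as separate samples 13 were lower, Rplp0 and Rpsa among them, where 12.4% of all genes were lower.

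The members that set KO 2 apart from the other KO libraries were also those that set WT 1 apart from the other WT libraries. On a log2 scale with a pseudocount of 0.1 CPM, KO 2 was below the mean of KO 1 and KO 3 in 77 of 83 members, with a median of -0.21. WT 1 was below the mean of WT 2 and WT 3 in 80 of 83, with a median of -0.45. The medians over 14536 other nuclear genes were 0.00 and 0.00. Across the 83 members these differences had a Pearson r of 0.68, and across 13907 other nuclear genes with a known length 0.12, as a description across genes that share the same libraries. Within the close pairs, the medians of the members were 0.03 (KO 1 minus KO 3) and -0.01 (WT 2 minus WT 3).

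Transcript length went with these differences. The 19 members of up to 500 nt had medians of -0.30 (KO 2) and -0.62 (WT 1), and the 22 members of 500 to 700 nt had -0.28 and -0.54. The 23 members of 700 to 1000 nt had -0.12 and -0.26, and the 13 members of 1000 to 1500 nt had -0.13 and -0.37. The 5 members of 1500 to 2500 nt had -0.04 and -0.19, so the differences did not shrink steadily from class to class. Rpl38, a 345 nt transcript, had 39.3, 31.3 and 38.1 CPM in KO libraries 1 to 3, against 25.8, 48.5 and 53.6 CPM in WT libraries 1 to 3. WT 1 differed from the mean of WT 2 and WT 3 by -0.98 in this gene, while the fold change of KO over WT was -0.14 (SE 0.40, edgeR FDR 0.868). Rplp0 (1358 nt) was higher in KO 2 than in KO 1 and KO 3 by 0.11, and higher in WT 1 than in WT 2 and WT 3 by 0.17. The longest member, Rps20 (3706 nt), differed by -0.21 in KO 2 and by -0.41 in WT 1.

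**Figure D3:**
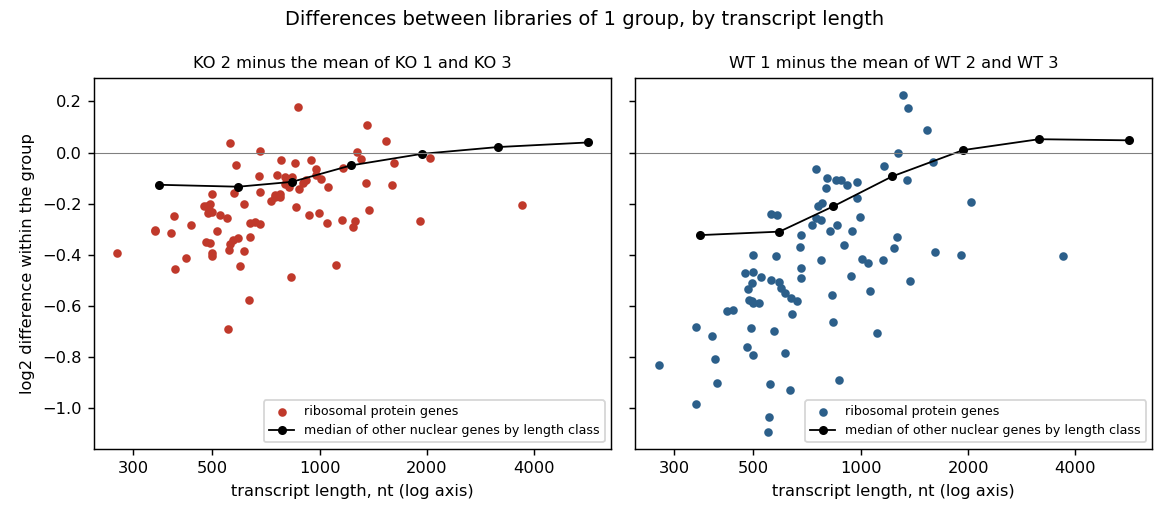
Log2 difference of 1 library from the mean of the other libraries of its group (vertical axis) against transcript length on a log axis, for 83 ribosomal protein genes (points) and as medians of other nuclear genes in length classes (black line). Short ribosomal protein transcripts lie lowest, with medians of -0.30 (KO 2) and -0.62 (WT 1) up to 500 nt, and other genes of that length have medians of -0.13 and -0.32.

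Other short transcripts shared the direction at a smaller size. The 273 other nuclear genes of up to 500 nt had medians of -0.13 (KO 2) and -0.32 (WT 1), and the 3947 longer than 4000 nt had 0.04 and 0.05. The correlation with log2 length was 0.45 (KO 2) and 0.59 (WT 1) across members, and 0.13 and 0.17 across 13907 other genes. For the fold change between KO and WT it was -0.18 across members and 0.04 across other genes. Mitochondrial ribosomal protein genes had medians of -0.16 (KO 2) and -0.23 (WT 1) and proteasome genes -0.12 and -0.20, while the other TOP mRNAs had -0.02 and -0.09. Markers of fast muscle were also lowest in these libraries, with a summed 9587, 8273 and 9433 CPM in KO libraries 1 to 3 and 5425, 7310 and 7518 CPM in WT libraries 1 to 3. Erythroid markers had 298, 234 and 294 CPM in KO and 270, 360 and 357 CPM in WT. The part of transcript length and of these cell types in the difference between libraries was not tested.

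When counts were scaled to the summed counts of the members, so that only departures from the shared level remain, 0 of 83 members passed in either direction, where 11.1% of all genes did so, 8.11% higher and 2.99% lower. At an unadjusted p under 0.05, 1 member was higher and 0 were lower, against 2340 higher and 854 lower of the 14632 genes. That member was Rpl3l, with a relative log2 fold change of 0.48 (edgeR FDR 0.171). With the 6 libraries as separate samples Rpl3l was the 1 member that passed, at 0.46 (edgeR FDR 0.0143), where 18.7% of all genes did. That fit counts libraries alike within sampling noise as separate samples, so its FDR may be too small.

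Rpl3l was the member with the most positive fold change, and it was set against Rpl3, the general form. Rpl3l had 1633, 1575 and 1790 counts in KO libraries 1 to 3, against 809, 918 and 981 counts in WT libraries 1 to 3. After scaling it had 42.0, 37.3 and 45.3 CPM in KO, against 27.5, 40.0 and 38.1 CPM in WT, so the groups overlapped (log2 fold change 0.28 with SE 0.16, edgeR FDR 0.285). Without WT 1 the fold change was 0.07. Rpl3 had 102, 93.3 and 101 CPM in KO, against 116, 129 and 122 CPM in WT, with no overlap (log2 fold change -0.31, SE 0.12, edgeR FDR 0.103).

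As a share of the pair's counts, Rpl3l took 29.1%, 28.6% and 31.0% in KO libraries 1 to 3, against 19.2%, 23.7% and 23.8% in WT libraries 1 to 3. The Wilson 95% intervals of the KO libraries began at 27.4% or higher and those of the WT libraries ended at 25.2% or lower, for counting error only. Over samples the share was 29.3% ± 1.06 in KO and 21.5% ± 3.26 in WT (SD, n = 2 per group), a difference of 7.84 percentage points. A two-sided exact permutation test of 2 samples against 2 gave p = 0.333, the smallest it allows. With 6 separate libraries the exact permutation p was 0.10, again the smallest possible, and 0.333 after Benjamini-Hochberg adjustment over the 5 pairs. The difference was 5.54 to 8.59 percentage points when each library was left out in turn.

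Markers of fast muscle moved in the same direction as the Rpl3l share, and those of slow muscle did not. Of 9 slow muscle genes 0 were higher and 0 lower in KO, with a median log2 fold change of -0.17. Their summed level was 37.0 to 41.1 CPM in KO and 35.9 to 42.3 CPM in WT. Of 14 fast muscle genes 6 were higher and 0 lower in KO (edgeR, FDR under 0.05), with a summed level of 8273 to 9587 CPM in KO and 5425 to 7518 CPM in WT, none of them at 0. These calls rest on 2 samples per group, and without KO 2 or without WT 1 only 1 is left in that group. Per 1000 counts of the 14 fast muscle genes, Rpl3l had 4.38, 4.51 and 4.80 counts in KO libraries 1 to 3, against 5.08, 5.48 and 5.07 in WT libraries 1 to 3. On that scale the order of the groups was turned round, with all KO libraries below all WT libraries. In bulk tissue, fewer cells of a type and less RNA per cell cannot be told apart.

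**Figure D4:**
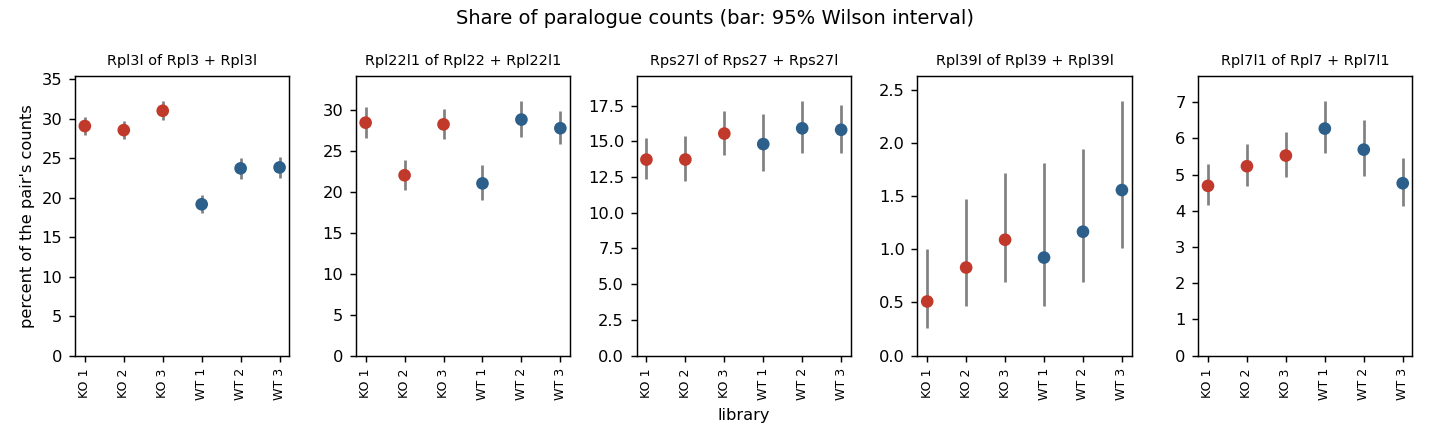
Share of each paralogue in the summed counts of the pair (percent, vertical axis) in each KO library (red) and each WT library (blue), with 95% Wilson intervals that cover counting error only. The Rpl3l share is 28.6% to 31.0% in KO and 19.2% to 23.8% in WT, and the libraries of the other pairs overlap between groups.

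The shares of the other paralogues overlapped between the groups over the 6 libraries. Rpl22l1, a paralogue of the RNA-binding protein Rpl22, took 28.4%, 22.0% and 28.2% of the pair's counts in KO, against 21.0%, 28.8% and 27.7% in WT. KO 2 and WT 1 were both low. The difference of 0.537 percentage points became -3.08 without WT 1, 3.70 without KO 2 and 0.256 without WT 3. Rps27l, a p53-induced paralogue of Rps27, took 13.7%, 13.7% and 15.6% in KO and 14.8%, 15.9% and 15.8% in WT, a difference of -1.16 points that became -0.696 without KO 1 and -0.713 without KO 2. Rpl39l, known as a male germ cell form of Rpl39, had 8 to 18 counts per KO library and 8 to 20 per WT library, and its share differed by -0.328 points (-0.186 without KO 1 and -0.551 without WT 1). Rpl7l1, a ribosome biogenesis relative of Rpl7, took 4.69% to 5.53% in KO and 4.76% to 6.27% in WT, a difference of -0.564 points that became -0.0277 without WT 1, -0.344 without WT 2 and -0.357 without KO 1. Over the 4 samples, the shares of Rps27l and Rpl39l did not overlap between the groups, like that of Rpl3l but lower in KO. Their exact permutation p was 0.333, the same as for Rpl3l. The shares of Rpl22l1 and Rpl7l1 overlapped over the 4 samples (exact permutation p = 0.667).

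Genes that act on ribosomal protein mRNAs were described from further lists. The 21 other TOP mRNAs, which share the 5′ pyrimidine start, had 0 higher and 0 lower by edgeR (0 and 1 at an unadjusted p under 0.05, and 0 and 0 by the DESeq2 Wald test and by limma-voom). Their median log2 fold change was -0.07, and their summed level was 2237 to 2268 CPM in KO and 2461 to 2496 CPM in WT. Eef1a1, which delivers aminoacyl-tRNA to the ribosome, averaged 738 CPM in KO and 904 CPM in WT (log2 fold change -0.29, edgeR FDR 0.184).

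**Figure D5:**
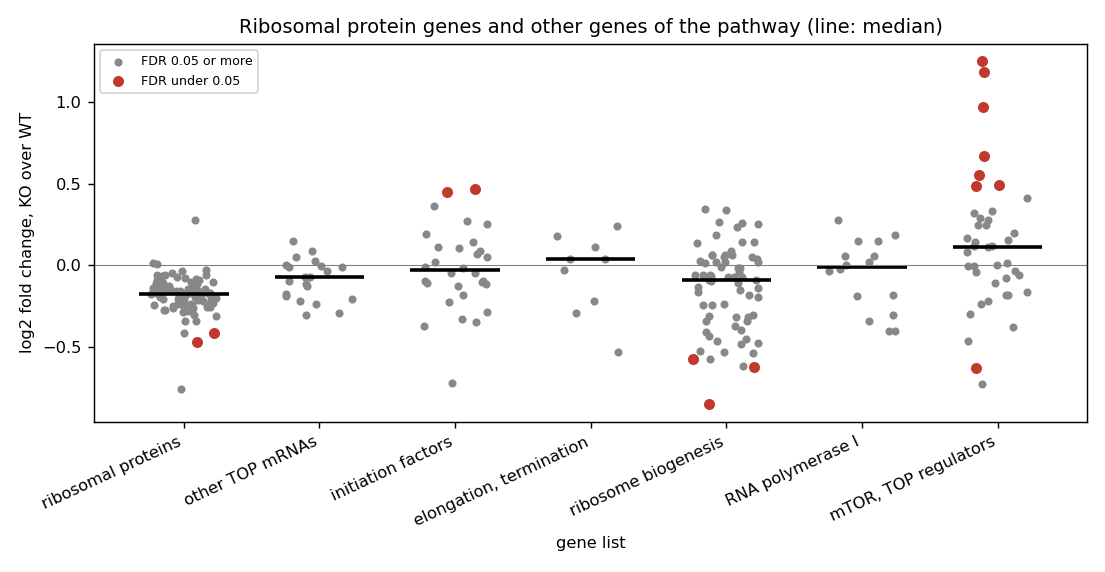
Log2 fold change of KO over WT (vertical axis) for each tested gene (points) of the ribosomal protein genes and 6 further lists (horizontal axis), with list medians as black lines and genes with an edgeR FDR under 0.05 in red. The ribosomal protein genes have a median of -0.18 and 2 red points, and the mTOR and TOP regulators a median of 0.11 with 7 red points above 0 and 1 below.

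The mTOR pathway and TOP mRNA regulators had 7 higher and 1 lower of 41 tested, where 9.15% of all genes were higher and 8.48% lower, with a median log2 fold change of 0.11. Sesn1, a stress-induced inhibitor of mTORC1, had 29.7, 26.4 and 30.2 CPM in KO libraries 1 to 3, against 11.8, 13.1 and 13.0 CPM in WT libraries 1 to 3. It was higher in KO by 1.18 (SE 0.12, edgeR FDR 1.48e-05). Ddit4, which inhibits mTORC1 through the TSC complex, had 82.8, 78.2 and 90.8 CPM in KO, against 30.1, 38.8 and 39.4 CPM in WT. Ddit4 was higher by 1.25 (SE 0.14, edgeR FDR 3.54e-05), and all KO libraries lay above all WT libraries for both genes. Max, the dimer partner of MYC, was higher by 0.97 (SE 0.12, edgeR FDR 8.40e-05).

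Further members of that list were chosen after their values were seen. Mtor, the kinase itself, was higher by 0.55 (edgeR FDR 0.0290), with 5.31 CPM in KO and 3.61 CPM in WT. The TOP mRNA-binding proteins Tial1 and Tia1 were higher by 0.67 (edgeR FDR 0.00172) and 0.49 (edgeR FDR 0.0254), and the S6 kinase gene Rps6kb2 by 0.49 (edgeR FDR 0.0493). Lamtor1, which anchors the Rag GTPases at the lysosome, was lower, with a log2 fold change of -0.63 (edgeR FDR 0.00316). Larp1, which holds TOP mRNAs back when mTOR is inactive, averaged 12.5 CPM in KO and 10.3 CPM in WT and did not pass (edgeR FDR 0.168), and Myc averaged 1.13 CPM in KO and 1.94 CPM in WT (edgeR FDR 0.0759). The list thus held both inhibitors and components of the mTOR pathway among its higher genes. The DESeq2 Wald test called 4 of the list higher and 1 lower.

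Of 69 ribosome biogenesis factors, 0 were higher and 3 were lower in KO, beside 9.15% higher and 8.48% lower over all genes, with a median of -0.09. Bysl, needed to mature the small subunit, had 2.03, 1.59 and 1.11 CPM in KO libraries 1 to 3, against 2.69, 2.18 and 3.69 CPM in WT libraries 1 to 3 (log2 fold change -0.85, SE 0.20, edgeR FDR 0.00996). Nolc1, a nucleolar phosphoprotein, had a fold change of -0.62 (edgeR FDR 0.0122), and Nop2, a ribosomal RNA methyltransferase, one of -0.57 (edgeR FDR 0.0439). All libraries of KO lay below those of WT for these 3 genes. The calls of Bysl and Nop2 were lost without KO 3 and without WT 3, each of which leaves 2 samples per group. The DESeq2 Wald test called 0 of the list (0 higher and 3 lower at an unadjusted p under 0.05).

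Of 30 translation initiation factors, 2 were higher and 0 lower, beside the same 9.15% higher and 8.48% lower over all genes. Eif4g3, a scaffold of the cap-binding complex, had 27.3, 27.5 and 26.5 CPM in KO libraries 1 to 3, against 20.3, 18.7 and 19.4 CPM in WT libraries 1 to 3 (log2 fold change 0.47, SE 0.11, edgeR FDR 0.00937). Eif4a2, an RNA helicase of that complex, had 62.5, 65.3 and 65.6 CPM in KO, against 44.4, 53.2 and 47.6 CPM in WT (log2 fold change 0.45, SE 0.12, edgeR FDR 0.0175). All KO libraries lay above all WT libraries in both genes. With 6 separate libraries the list had 4 higher and 6 lower, where 12.6% of all genes were higher and 12.4% lower. That fit counts libraries alike within sampling noise as separate samples.

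The RNA polymerase I machinery, which makes the ribosomal RNA, had 0 higher and 0 lower of 16 tested by edgeR, DESeq2 and limma-voom, with 0 and 0 at an unadjusted p under 0.05. The 9 elongation and termination factors had 0 higher and 0 lower by the same tools, with 0 higher and 2 lower at an unadjusted p under 0.05 by edgeR. Eef1a2, the muscle and neuron form of elongation factor 1A, averaged 44.7 CPM in KO and 37.8 CPM in WT and did not pass (edgeR FDR 0.174). The 78 mitochondrial ribosomal protein genes, which serve the separate ribosome of mitochondria, had 0 higher and 0 lower by all 3 tools (3 and 1 at an unadjusted p under 0.05 by edgeR) and a median fold change of -0.03. The 37 tested proteasome genes had 1 higher and 0 lower and a median of 0.07. The fold changes of the members were less spread than those of both families, with an SD over genes of 0.122, against 0.222 for mitochondrial ribosomal proteins and 0.193 for proteasome genes, while their median count per library was 2589, against 137 and 360.

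Markers of other cell types also differed between the groups. Salivary gland genes were higher in KO in 11 of 11 tested (528 to 557 CPM in KO and 41.7 to 45.5 CPM in WT when summed), with Prol1 at 0 in all WT libraries. Neuron genes were higher in 10 of 10 (40.7 to 48.0 CPM in KO and 6.74 to 9.03 CPM in WT), with Dbh and Chrna3 at 0 in all WT libraries. Schwann cell genes were lower in 8 of 8 (476 to 490 CPM in KO and 1402 to 1445 CPM in WT), and macrophage genes in 7 of 10 (59.6 to 61.7 CPM in KO and 93.3 to 115 CPM in WT). Fibroblast genes had 1 higher and 3 lower of 8 (886 to 972 CPM in KO and 740 to 814 CPM in WT). Slow muscle had 0 of 9 passing (37.0 to 41.1 CPM in KO and 35.9 to 42.3 CPM in WT), erythroid genes 0 of 8 (234 to 298 CPM in KO and 270 to 360 CPM in WT), and lymphocyte genes 0 of 1 tested, at under 1 CPM in each library. The part of these cell types in the level of ribosomal protein mRNAs was not tested.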

How the data were processed

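The authors deposited 1 table of raw counts per gene symbol, not normalized, with 3 KO and 3 WT columns. Per the submitters' processing notes, HISAT2 2.1.0, StringTie 2.1.5 and the build mm39 were used. The sources used here give neither the strand setting nor the treatment of reads shared between copies, so paralogues and antisense overlaps are uncertain. Groups came from the sample titles. Members, lists and tests were chosen with earlier results of these data known.

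All genes were fitted with edgeR 4.0.16 in R 4.3.3 (filterByExpr with a minimum count of 10, TMM scaling, robust quasi-likelihood test, group as the term, Benjamini-Hochberg over all genes tested). A second fit used the members' summed counts as library size. Libraries of 1 group with a median ratio of observed to counting variance under 1.1 were summed, with 2 counts per read pair. The SE is the fold change over the square root of F. Alternatives were DESeq2 1.42.0, limma 3.58.1 and others in the closing section. The test was first tested on simulated data. Replicate numbers were not used to pair samples in the main fit.

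Named genes were the members past FDR 0.05, the 3 of smallest p each way relative to the sum if past it, the 5 highest and 5 lowest per kb, paralogue pairs, stalk genes, Rpsa, Rps6, Rpl5 and Rpl11, and up to 3 genes per list; others were chosen after their values were seen. Transcript lengths are those of the shortest principal protein-coding transcript in GENCODE vM21. Promoters are from RefSeq, GRCm38.p6. Intervals on shares are Wilson and cover counting error only.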

Additional observations from a re-analysis of the deposited data

How the results depend on the processing

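The median log2 fold change of the members stayed below 0 in every setting tried, between -0.35 (without WT 1) and -0.09 (without KO 2) when 1 library was left out and between -0.21 and -0.16 in the others, apart from scaling to the members' own sum. No member was higher in any of them. The number lower, 2, was 0 to 17 when 1 library was left out, 13 with the 6 libraries as separate samples, and 2 or 3 under other scalings (DESeq2 size factors, upper quartile, nuclear genes only, without ribosomal protein genes, without mitochondrial, muscle and erythroid genes), other filters, DESeq2, limma-voom and with pseudogene rows added. Relative to the sum, 0 members passed, and 1 with 6 separate libraries. Over all genes 2580 were called, 1149 to 2434 when 1 library was left out and 1634 by the DESeq2 Wald test. The difference in Rpl22l1 share ran from -3.08 to 3.70 percentage points when 1 library was left out, and that of Rpl3l from 5.54 to 8.59; these settings for shares were chosen after seeing the data. Among the fold changes of named genes, 864 values under the alternatives kept their direction and call, 21 lost the call, 6 gained it and 6 changed sign. The fits without KO 2 and without WT 1, which left 1 sample in a group, are among these alternatives. The sign changes were in members that did not pass, all without KO 2 and for Rplp2 also without WT 3 (0.021). Their ranges with 1 library left out, from without WT 1 to without KO 2, were -0.34 to 0.063 (Rpl41), -0.59 to 0.10 (Rpl22l1), -0.42 to 0.00789 (Rps27), -0.47 to 0.031 (Rpl39) and -0.29 to 0.16 (Rplp2). The causes were not tested.

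The replicate number as a block, on 6 separate libraries, gave 7 members lower (8.43%), where 10.5% of all genes were lower. Relative to the sum it gave 0 members, and the median fold change of the members was -0.20. Same-numbered libraries did not deviate together (r of -0.11, -0.14 and 0.08), so the numbers name libraries only. The highest r between a KO and a WT library was that of KO 2 with WT 1 (0.22).

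The number of samples and the differences between libraries of a group limit single members: 80 of 83 had a fold change below 0, while 9 reached an unadjusted p under 0.05 and 2 an FDR under 0.05.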
